A study of Arabidopsis thaliana with 6 samples.

Results

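The gene set comprised 46 nuclear genes that encode parts of the photosynthetic machinery. They were taken from a list of loci by function. The list held 4 light-harvesting genes of photosystem I (LHCA), 7 genes of the major and 4 of the minor light-harvesting antenna of photosystem II (LHCB), 12 photosystem I subunits, 5 genes of the oxygen-evolving complex, 4 other photosystem II subunits, 4 RuBisCO small subunit genes with RuBisCO activase, and 5 genes of electron transport and ATP synthesis. Every array probe whose RefSeq accession mapped to one of these loci was used, which gave 166 probes, and all 46 were among the 20159 loci tested. Each had at least 1 probe well above background on all 6 arrays, so that no member was lost to a filter on dim probes.

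Light-harvesting proteins bind chlorophyll and pass excitation energy to the reaction centres of photosystem II, which splits water, and photosystem I, which reduces ferredoxin. The cytochrome b6f complex and plastocyanin carry electrons between them, ATP synthase uses the resulting proton gradient, and RuBisCO fixes carbon dioxide. The core reaction-centre proteins and the large subunit of RuBisCO are encoded in the chloroplast, whereas the genes measured here are transcribed in the nucleus, mainly in green leaf cells, and are among the most strongly expressed genes of a green seedling.

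The samples were whole Arabidopsis thaliana seedlings of ecotype Columbia-0, aged 14 days, of a wild-type line (WT) and 2 lines labelled as ago2 mutants, ago2a and ago2c. AGO2 encodes an Argonaute protein, which binds small RNAs. The nature of the mutations was not given in the sources used here. Seedlings of each line were either mock-treated or exposed to cobalt-60 gamma rays for 4 hours at 50 Gy per hour, 200 Gy in all, and RNA was taken 24 hours later. Each of the 6 combinations was represented by 1 array hybridised with Cy3-labelled RNA pooled from 3 independent batches of at least 10 seedlings each. The spread between seedling batches was therefore not measured, and single lines were compared without a test. Values are processed signals, the background-corrected brightness of a probe in scanner units, and differences are log2 values after each array was scaled to the 75th percentile of its signals.

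AGO2 itself had signals of 250.1 and 521.4 on the mock and irradiated WT arrays and between 5.03 and 12.9 on the 4 ago2 arrays, where it was not well above background. The 75th percentile of signal lay between 2159 and 2338 on both WT arrays and the ago2a mock array, and between 1374 and 1688 on the other 3. Between 70.5% and 73.4% of probes were well above background and no probe was flagged as saturated. The differences between the probes of a locus split the arrays in the same way: a first principal component over 5613 loci with several bright probes held 89.0% of the variance and set WT mock, WT irradiated and ago2a mock (the first array group) apart from ago2a irradiated, ago2c mock and ago2c irradiated (the second array group). The mock and irradiated arrays of WT lay in one group, as did those of ago2c, whereas those of ago2a lay in different groups. Hybridisation slide did not follow this split, since slide 1 held all arrays of WT and ago2a and slide 2 held both arrays of ago2c. Which property of the RNA or the arrays separates the groups was not tested.

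The members gave some of the brightest signals on the arrays. The brightest probe of a member averaged at least 100000 units in 39 of the 46 genes and at least 400000 in 12. The highest signal on an array lay between 548587 and 559649 on all 6. The 75th percentiles, however, differed by -0.47 log2 for irradiated minus mock ago2a and by -0.65 for ago2c minus WT irradiated. A probe with equal unscaled signal on such a pair takes a scaled difference of the same size and opposite sign. Whether the brightest signals were compressed was not tested. Of the 46 loci with the brightest probes 29 were members, and 44 members were among the brightest 500. Signals are given below as pairs, the mock array first and the irradiated array second. PSBO1 (AT5G66570), which encodes the manganese-stabilising protein of the oxygen-evolving complex, gave 514054 and 510270 units in the WT pair, 503389 and 501876 in the ago2a pair, and 484377 and 515246 in the ago2c pair. LHCB2.1, an antenna gene, was at the other end with 7860 and 6066 units in the WT pair, 8323 and 2411 in the ago2a pair, and 2535 and 2300 in the ago2c pair. Brightness also depends on the probe, so this order is not an order of transcript abundance.

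**Figure D1:**
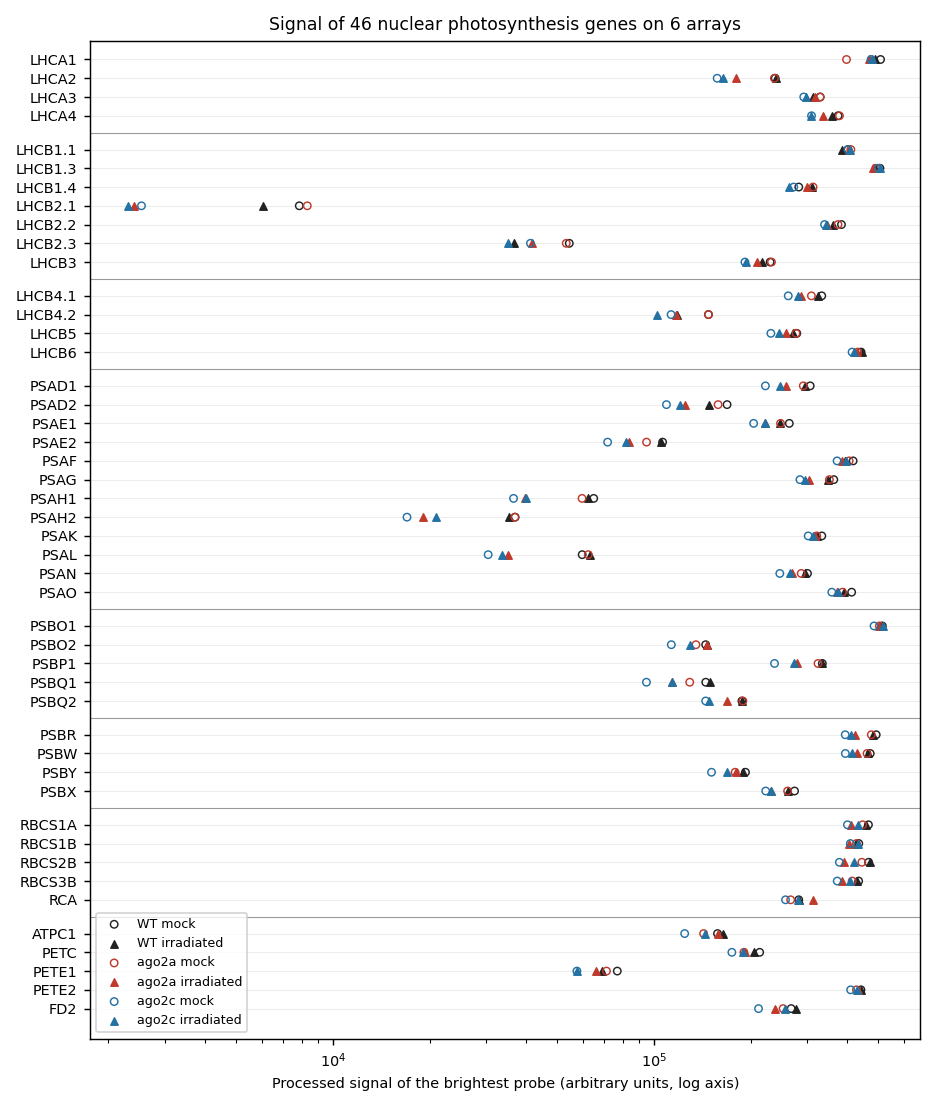
Processed signal of the brightest probe (scanner units, log axis) of each of the 46 genes, grouped by role, on the 6 arrays; open circles are mock and filled triangles irradiated, black for WT, red for ago2a and blue for ago2c. Most genes lie above 100000 units with all 6 arrays close together, while LHCB2.1, PSAH1, PSAH2 and PSAL are lower on ago2a irradiated and both ago2c arrays.

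The first comparison asked whether irradiation altered these genes across the 3 lines. No member passed the test in either direction (limma with line as a block, adjusted p under 0.05), where 0.223% of all tested loci were called higher and 0.0149% lower. The 3 lines stood in for replicates, so the standard errors of this fit reflect how far the irradiation difference varied between lines. The smallest adjusted p of a member was 0.411, for FD2, the major leaf ferredoxin. No member reached an unadjusted p under 0.05 either, which 13.9% of all loci did. The median difference over the members was 0.15 log2, against 0.01 over all loci tested, and 41 of 46 estimates lay above 0. That median was -0.02 after quantile normalization, and 0.05 without the ago2a line, and 0.25 without WT, so that its size rested on the ago2a arrays and on the scaling.

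The 3 lines gave different pictures. In WT the brightest probe of a member differed between irradiated and mock arrays by a median of -0.04, with a range of -0.56 to 0.14, and 13 members were above 0, against 47.1% of all loci. In ago2c the median was 0.13, with a range of -0.18 to 0.35, and 42 members were above 0, against 51.4% of all loci. After quantile normalization the ago2c median was 0 and 20 members were above 0. In ago2a the median was 0.36, with a range of -1.32 to 0.70, and 42 members were above 0, against 56.3% of all loci. No member was at least 1.5-fold higher or lower in WT or ago2c, where 3.71% and 3.44% of all loci were higher and 4.04% and 10.3% lower. In ago2a 3 members (LHCA1, RCA and ATPC1) were at least 1.5-fold higher and 1 (LHCB2.1) lower, against 6.29% and 14.1% of all loci. In all 3 lines 11 members lay above 0 and 1 below, against 21.4% and 18.0% of all loci, and none was at least 1.5-fold higher or lower in every line, as 0.933% and 1.26% of loci were. Whole seedlings were measured, so fewer green cells and less RNA per cell cannot be told apart.

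Comparing all probes of a locus changed the account of ago2a most, while the spread between probes was small in the other lines. For the 40 members with at least 2 bright probes, the probes of one gene differed in their irradiation difference by a median of 0.09 in WT and 0.12 in ago2c, and by at most 0.26 and 0.35. In ago2a the same spread was 0.81 and reached 1.80, and in 33 of the 40 genes some probes were higher and others lower. Probes also disagreed in sign in 19 of the 40 genes in WT and in 6 in ago2c. Of the 166 probes 102 were lower in WT (61.4%), against 49.5% of all probes. Over all 5613 loci with several bright probes the median spreads were 0.10 in WT, 0.09 in ago2c and 0.46 in ago2a. PSBO2 (AT3G50820), the second manganese-stabilising protein gene, shows the pattern. Its brighter probe gave 135114 and 145810 units in mock and irradiated ago2a, a difference of 0.58, and its dimmer probe 1887 and 637.2 units, a difference of -1.10. In ago2c the same probes gave 113226 against 129132 and 457.5 against 557.6 units, differences of 0.23 and 0.33. The 2 probes of PSBO2 therefore pointed opposite ways in ago2a and the same way in ago2c.

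**Figure D2:**
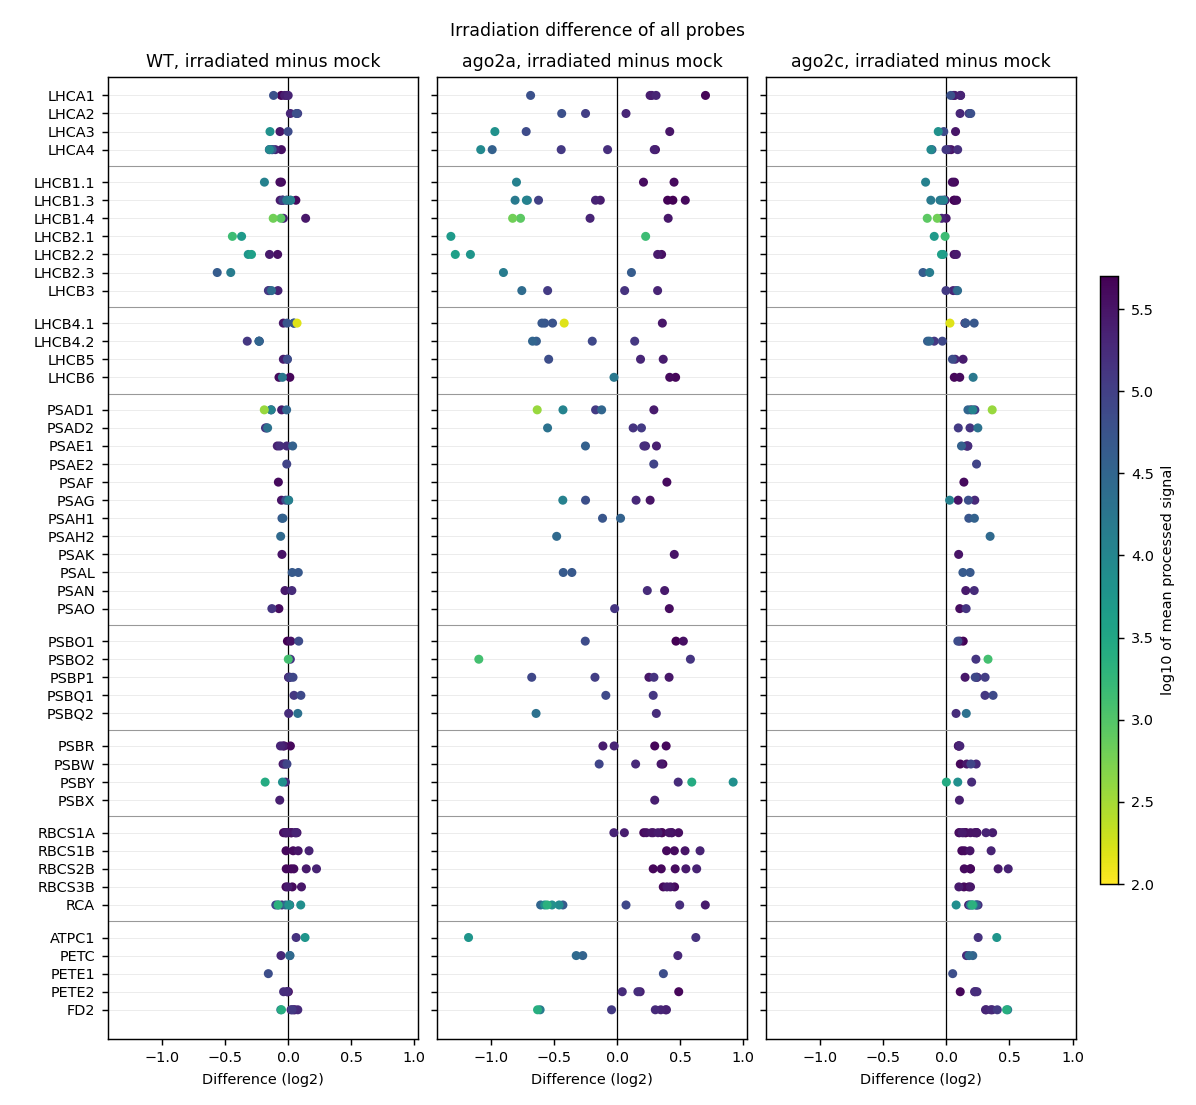
Irradiated minus mock (log2, scaled to the 75th percentile) of every one of the 166 probes, by gene and role, in WT, ago2a and ago2c; each point is 1 probe and its colour the log10 of its mean signal. The probes of a gene lie close together in WT and ago2c, and spread from below -1 to above 0.5 in ago2a with the brightest probes mostly to the right.

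The position of a probe in this spread followed its brightness. Among member probes under 10000 units the median ago2a difference was -0.63 (19 probes), between 10000 and 50000 it was -0.55 (27 probes), between 50000 and 200000 it was 0.04 (45 probes), between 200000 and 400000 it was 0.33 (54 probes) and above 400000 it was 0.40 (21 probes). Across the 166 probes, which share genes and arrays, the difference correlated with log2 mean signal with a Pearson r of 0.72 and a Spearman rho of 0.77 in ago2a. The values were 0.32 and 0.22 in WT and 0.15 and 0.06 in ago2c. For probes of other loci the ago2a medians in the same bands were 0.01, 0.14, 0.28, 0.46 and 0.45, so the dim probes of members lay below dim probes elsewhere on the arrays. A value for ago2a irradiation thus depended on which probe stood for the gene: the median over members was 0.36 with the brightest probe, -0.02 with the mean of probes and -0.42 with the dimmest bright probe.

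**Figure D3:**
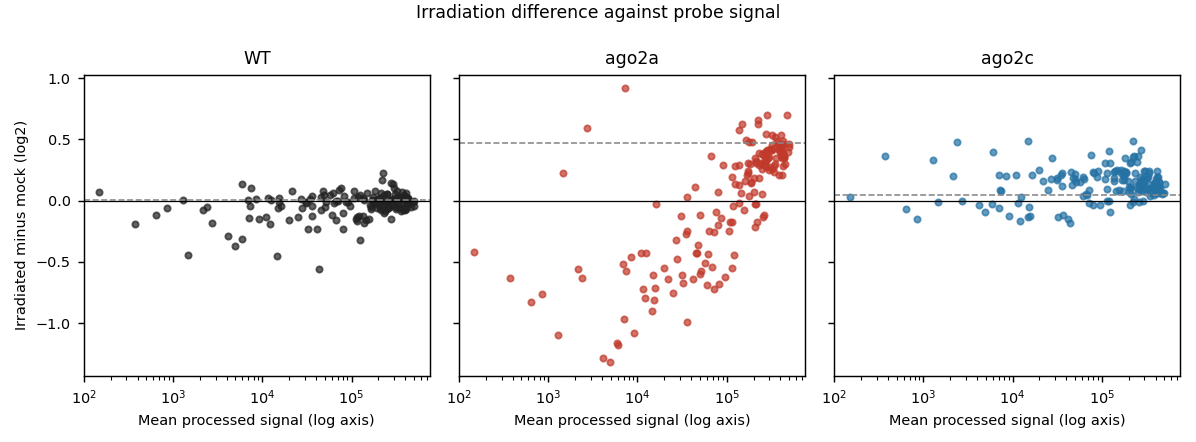
Irradiated minus mock (log2) of the 166 member probes against their mean processed signal (log axis) in WT, ago2a and ago2c; the solid line is 0 and the dashed line is where a probe with equal unscaled signal on both arrays would lie. Most ago2a points climb with signal towards the dashed line, and some lie above it, among them 2 dim PSBY probes at 0.92 and 0.59. The WT and ago2c points stay between -0.56 and 0.49 at all signals.

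The antenna genes of photosystem I bind the chlorophyll that surrounds that photosystem. LHCA1 had the highest and LHCA2 the lowest irradiation estimate of the 4, 0.23 ± 0.18 (SE, adjusted p = 0.583, limma) and 0.07 ± 0.09 (adjusted p = 0.740, limma). The brightest probe of LHCA1 (AT3G54890) gave 507526 and 487015 units in the WT pair, 397587 and 466102 in the ago2a pair, and 474128 and 477982 in the ago2c pair. Its ago2a mock value was the lowest of the 6, but the other 4 LHCA1 probes were not low on that array: the next one gave 305960, 302926, 311046, 271579, 234673 and 246042 units in the same order. The brightest probe of LHCA2 (AT3G61470) gave 238442 and 240528 units in the WT pair, 237069 and 179639 in the ago2a pair, and 157272 and 164425 in the ago2c pair. The mock and irradiated arrays of LHCA2 overlapped, and in unscaled signal the low values were those of the second array group. After scaling this probe was not low there. Its scaled values ran from 6.73 to 6.90 log2 in the second group, against 6.66 to 6.80 in the first. The dimmer LHCA2 probes stayed lower after scaling, by -0.31 and -0.50 for ago2c minus WT mock.

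Among the major antenna proteins of photosystem II, LHCB2 proteins are the mobile antenna that is phosphorylated when light energy is shared between the photosystems. All 8 LHCB2 probes were lower after irradiation in WT, with a median of -0.34 and a range of -0.56 to -0.08, and all 8 stayed lower under each of 6 scalings. The 75th percentiles of the WT arrays differed by only -0.0056 log2 and their medians by -0.0014. Most scalings therefore gave nearly the same WT differences. Of all loci with several bright probes 30.6% were lower in WT on every probe under each scaling. The brighter probe of LHCB2.3 (AT3G27690) gave 54466 and 36771 units in the WT pair, 53303 and 41615 in the ago2a pair, and 41230 and 35171 in the ago2c pair. It was lower on the irradiated array of every line in unscaled signal, although mock and irradiated groups overlapped narrowly, and on the scaled values the differences were -0.56, 0.11 and -0.18 in the same order. Its estimate over the lines was -0.21 ± 0.16 (adjusted p = 0.573, limma). LHCB2.3 was singled out after its values were seen.

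LHCB2.1 (AT2G05100) and LHCB2.2 (AT2G05070), neighbouring genes on chromosome 2, also showed the WT difference, which in LHCB2.2 was smaller on its brighter probes. The brightest LHCB2.2 probe gave 383484 and 360806 units in the WT pair, 374034 and 344591 in the ago2a pair, and 339602 and 343663 in the ago2c pair, a WT difference of -0.08. A dimmer probe of LHCB2.2 gave 9292 and 7438 units in the WT pair, 9205 and 2969 in the ago2a pair, and 3311 and 3153 in the ago2c pair. Its differences were -0.32, -1.16 and -0.03. LHCB2.1 differed by -0.37, -1.32 and -0.10 in WT, ago2a and ago2c on its brighter probe, and by -0.44, 0.23 and -0.01 on the other. The estimate for LHCB2.1, the lowest of the class, was -0.59 ± 0.27 (adjusted p = 0.418, limma). The coding sequences of LHCB2 genes are close copies of each other, as are those of LHCB1 genes, so probes may have measured more than 1 gene and single copies are uncertain.

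The 16 probes of the LHCB1 genes, which encode the most abundant antenna protein, had a median of -0.04 in WT and -0.02 in ago2c. LHCB1.4 (AT2G34430) had the highest estimate of the class, 0.18 ± 0.12 (adjusted p = 0.527, limma), with 282335 and 309756 units in the WT pair, 312855 and 298835 in the ago2a pair, and 272307 and 263731 in the ago2c pair. Its mock and irradiated values overlapped. The direction of LHCB1 in ago2c was set by the scaling: 5 of 16 probes were higher with the 75th percentile, 0 with quantile normalization and 13 with the median of each array.

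In the minor antenna, LHCB4.2 (AT3G08940), 1 of the genes for the linker protein CP29, was lower after irradiation in WT on all 4 probes, by -0.32 to -0.23. This held under each of 6 scalings, most of which changed its WT differences little. Its brightest probe gave 147724 and 117619 units in the WT pair, 147823 and 117483 in the ago2a pair, and 113036 and 102529 in the ago2c pair. Unscaled signals were lower on the irradiated array of every line, with the ago2c mock array below the irradiated arrays of the other 2 lines. After scaling the ago2a difference was 0.14 on this probe and -0.67 to -0.20 on the other 3, and the estimate over the lines was -0.09 ± 0.12 (adjusted p = 0.743, limma). LHCB6 (AT1G15820), which encodes CP24, had the highest estimate of the class, 0.18 ± 0.13 (adjusted p = 0.559, limma). Its brightest probe was nearly level, with 441300 and 443879 units in the WT pair, 430384 and 428248 in the ago2a pair, and 413820 and 419095 in the ago2c pair.

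Over all loci tested, 52.4% of probes were higher after irradiation in ago2c and 49.5% lower in WT. In the bands of signal used above, from dim to bright, the median ago2c difference of member probes was 0.03, 0.16, 0.18, 0.13 and 0.11. For probes of other loci it was 0.01, 0.09, 0.14, 0.13 and 0.08, so bright probes elsewhere were also higher in ago2c. The photosystem I subunits were higher in ago2c on 28 of 28 probes, with a median of 0.17 and a range of 0.03 to 0.36, and on 21 of 28 after quantile normalization. In WT 22 of 28 were lower, with a median of -0.05. PSAH2 (AT1G52230), a subunit at which the mobile antenna docks, gave 36943 and 35336 units in the WT pair, 36865 and 19090 in the ago2a pair, and 17013 and 20976 in the ago2c pair. Both WT arrays and the ago2a mock array lay at 35336 or above and the other 3 at 20976 or below, and the scaled differences were -0.06, -0.48 and 0.35. PSAL (AT4G12800), which neighbours that site, behaved likewise on both probes, with 59759 and 62975 units in the WT pair, 62410 and 35134 in the ago2a pair, and 30449 and 33638 in the ago2c pair on the brighter one. PSAL was chosen after its values were seen. In both genes the mock and irradiated arrays overlapped, and the low values were those of the second array group.

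PSAE2 (AT2G20260), at the stromal side where ferredoxin docks, had the highest estimate among these subunits, 0.17 ± 0.11 (adjusted p = 0.507, limma), and PSAH2 the lowest, -0.06 ± 0.18 (adjusted p = 0.888, limma). The single probe of PSAE2 gave 106351 and 105186 units in the WT pair, 94794 and 83656 in the ago2a pair, and 71706 and 82059 in the ago2c pair. Before scaling its WT arrays were the brightest, and the irradiated array was the brighter one in ago2c alone. Scaling changed this order. The scaled WT values, 5.62 and 5.61 log2, lay below those of irradiated ago2a (5.63) and of both ago2c arrays (5.66 and 5.90). The lowest scaled value was that of ago2a mock, 5.34.

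The oxygen-evolving complex shields the manganese cluster that splits water. Its 14 probes were all higher after irradiation in ago2c, with a median of 0.23, and 12 were higher after quantile normalization. In WT the median was 0.02 and no probe lay beyond -0.01 to 0.10. PSBO2 had the highest estimate, 0.28 ± 0.14 (adjusted p = 0.445, limma), and its brighter probe gave 144836 and 146115 units in WT beside the ago2 values above. PSBQ2 (AT4G05180), a small extrinsic subunit, had the lowest, 0.13 ± 0.11 (adjusted p = 0.597, limma), with 187810 and 187687 units in the WT pair, 189147 and 169281 in the ago2a pair, and 144823 and 148103 in the ago2c pair. The WT pair of PSBQ2 was all but equal.

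Of the other photosystem II subunits, PSBY (AT1G67740), a small membrane protein encoded as a precursor, was the only 1 of the 40 members with several bright probes whose probes were all higher in ago2a under each of 6 scalings, as 3.99% of such loci were. Its brightest probe gave 192667 and 189208 units in the WT pair, 178890 and 180542 in the ago2a pair, and 151030 and 168257 in the ago2c pair. A dimmer probe gave 6543 and 6321 units in the WT pair, 5459 and 7449 in the ago2a pair, and 8660 and 8940 in the ago2c pair. On this probe the second array group was brighter than the first. The estimate for PSBY was 0.22 ± 0.13 (adjusted p = 0.497, limma). PSBX (AT2G06520), another small membrane subunit, had the lowest, 0.11 ± 0.11 (adjusted p = 0.661, limma), with 273937 and 260690 units in the WT pair, 260638 and 231225 in the ago2a pair, and 222756 and 232062 in the ago2c pair.

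The 4 RuBisCO small subunit genes supply the nuclear-encoded chain of the carbon-fixing enzyme, and 3 of them, RBCS3B, RBCS2B and RBCS1B, adjoin each other on chromosome 5. RBCS1A (AT1G67090) gave 465279 and 458058 units in the WT pair, 446445 and 411182 in the ago2a pair, and 400291 and 431694 in the ago2c pair. RBCS1B (AT5G38430) gave 434130 and 427667, 426915 and 404226, and 408695 and 431434 units in the same order. RBCS2B (AT5G38420) gave 465845 and 471971, 443829 and 390471, and 377729 and 418195 units. All 4 genes, with RBCS3B (AT5G38410) at 433703 and 427197, 414139 and 385059, and 371999 and 407948 units, were nearly level in WT and brighter on the irradiated than on the mock array of ago2c.

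In ago2c all 26 RBCS probes were higher after irradiation, with a median of 0.19 and a range of 0.10 to 0.49, and in WT 17 were higher and 9 lower, with a median of 0.03. After quantile normalization 23 of 26 were higher in ago2c, with a median of 0.07. Every probe of RBCS1B and RBCS2B was higher in ago2c under each of 6 scalings, and RBCS1A and RBCS3B had probes on both sides of 0 over these scalings. The irradiation estimates of the 4 genes lay between 0.16 and 0.18, with standard errors of 0.10 to 0.11 for RBCS1A, RBCS2B and RBCS3B and 0.12 for RBCS1B, and with adjusted p of 0.500 to 0.555 (limma). The RBCS genes are close copies, so that probes may be shared between them.

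RCA (AT2G39730), the activase that removes inhibitors from RuBisCO, had the highest estimate of its class, 0.30 ± 0.17 (adjusted p = 0.478, limma). Its brightest probe gave 282312 and 283735 units in the WT pair, 266421 and 312026 in the ago2a pair, and 256760 and 281336 in the ago2c pair. The irradiated array was the brighter one in every line, although the groups overlapped. In ago2c all 9 probes were higher, by 0.08 to 0.25, and under each of 6 scalings. In ago2a they ran from 0.70 on the brightest to -0.61, with 3 higher and 6 lower.

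Of the electron transport genes, FD2 (AT1G60950), whose protein accepts electrons from photosystem I, has 7 probes. Its brightest probe gave 267343 and 276251 units in the WT pair, 252324 and 237608 in the ago2a pair, and 211578 and 255197 in the ago2c pair. All 7 probes were higher after irradiation in ago2c, by 0.31 to 0.49, and by at least 0.10 under each of 6 scalings, while WT probes lay between -0.06 and 0.08. The estimate over the lines was 0.25 ± 0.11 (adjusted p = 0.411, limma). FD2 was singled out after its values were seen.

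ATPC1 (AT4G04640), the gamma subunit of the chloroplast ATP synthase, had the highest estimate of the class, 0.31 ± 0.14 (adjusted p = 0.418, limma), and probes that disagreed in ago2a. Its brighter probe gave 157678 and 164186 units in the WT pair, 142695 and 158642 in the ago2a pair, and 124589 and 143848 in the ago2c pair. Its dimmer probe gave 9141 and 9996, 9006 and 2875, and 2152 and 2752 units in the same order. Both probes were higher on the irradiated array in WT and ago2c, and they differed by 0.62 and -1.18 in ago2a. PETE1 (AT1G76100), a plastocyanin gene with 1 probe, had the lowest estimate, 0.09 ± 0.13 (adjusted p = 0.779, limma), with 76841 and 68682 units in the WT pair, 71123 and 66173 in the ago2a pair, and 57534 and 57760 in the ago2c pair.

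**Figure D4:**
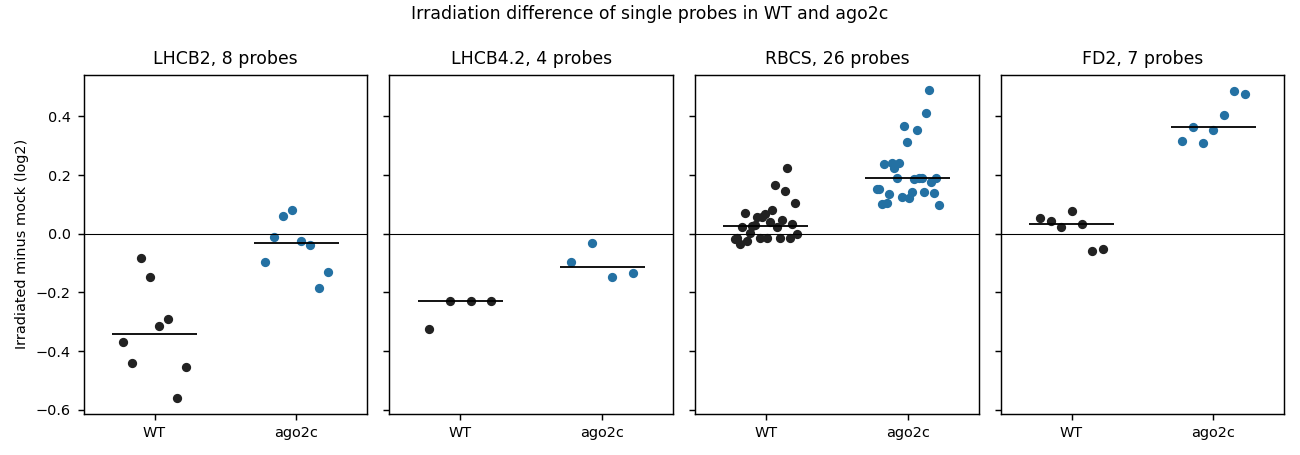
Irradiated minus mock (log2, scaled to the 75th percentile) of each probe of LHCB2, LHCB4.2, RBCS and FD2 in WT (black) and ago2c (blue), whose 2 arrays lie in the same array group; the bar is the median over probes. LHCB2 and LHCB4.2 probes are all below 0 in WT, and RBCS and FD2 probes are all above 0 in ago2c.

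Taking the 40 members with several bright probes together, every probe was higher after irradiation in ago2c in 30 (75% of the 40, against 42.7% of all such loci) and lower in 4 (34.0% of all such loci). In WT every probe was higher in 7 (38.6%) and lower in 14 (34.1%), and in ago2a in 6 (29.1%) and 1 (27.4%). The count in ago2c depended on the scaling. Under each of 6 scalings it was 12 members higher and 1 (LHCB2.3) lower, 30% and 2.5% of the 40, against 24.9% and 20.8% of all such loci. The share of higher members was then close to that of other loci. In WT 9 members were lower under each scaling (LHCA4, LHCB1.1, LHCB2.1, LHCB2.2, LHCB2.3, LHCB3, LHCB4.2, PSAD2 and PSAO), which is 22.5% against 30.6% of all such loci, and 3 were higher (7.5% against 33.4%).

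The second comparison set the ago2 lines against WT. No member passed the test (limma with irradiation as a term), where 0 loci in all were called higher (0.00%) and 1 lower (0.00496%). The smallest adjusted p of a member was 0.643, and no member reached an unadjusted p under 0.05, as 3.91% of loci did. The median estimate over the members was 0.22, against 0.03 over all loci tested. It was 0.40 without ago2a, 0.03 without ago2c and -0.16 with the array group as a block. Without ago2a, 33 of the 46 members had an unadjusted p under 0.05, against 27.4% of all loci, and none passed adjustment (smallest 0.161). That fit set the ago2c arrays against the WT arrays, which also differ in slide and in array group. Line, slide and array group cannot be told apart there.

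The array groups were defined by the differences between probes of a gene, so a narrow spread of probes within a group and a wide one across groups follow from that definition. Between ago2a mock and WT mock, both of the first group, 155 of 166 member probes were lower in ago2a, with a median of -0.15. Every probe was lower in 33 of the 40 members with several bright probes (82.5%), against 36.0% of all such loci. The spread between probes of a gene was 0.08. In the bands of signal used above, from dim to bright, the medians were -0.18, -0.11, -0.17, -0.14 and -0.15 for member probes. For probes of other loci the medians were -0.01, -0.11, -0.13, -0.13 and -0.10, so bright probes elsewhere were lower too. By the brightest probe 45 of 46 members were below 0, against 56.1% of all loci. FD2 gave 267343 units in WT and 252324 in ago2a, RCA 282312 and 266421, and PETC (AT4G03280), the Rieske protein of cytochrome b6f, 213307 and 190534. These 3 genes and 10 others were lower in ago2a mock on every probe under each of 6 scalings, 32.5% of the 40 against 15.4% of all such loci. PETC was chosen for these values. In unscaled signal 113 of the 166 probes were lower and 53 higher.

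Between ago2c and ago2a after irradiation, both of the second group, 159 of 166 probes were higher in ago2c, with a median of 0.23, and the spread between probes was 0.13. These arrays were on different slides, so line and slide cannot be told apart. Every probe was higher in 35 of the 40 members with several bright probes, against 44.2% of all such loci. From the dimmest to the brightest band of signal, member probes had medians of 0.23, 0.16, 0.19, 0.25 and 0.31. Probes of other loci had 0.03, 0.11, 0.15, 0.24 and 0.33, so bright probes elsewhere were higher too. All 46 brightest probes were above 0, against 54.7% of all loci. This direction came with the scaling: in unscaled signal 51 probes were higher and 115 lower, with a median of -0.06. Under each of 6 scalings only PSAH1, RBCS1B and FD2 of the 40 members stayed higher on every probe, 7.5% against 3.30% of all such loci.

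Across the array groups the spread between probes of a gene was 0.89 for ago2c minus WT mock, 0.79 for ago2a minus WT irradiated and 0.87 for ago2c minus WT irradiated. By the brightest probe the member medians were 0.31, 0.26 and 0.48, and by the dimmest bright probe they were -0.39, -0.51 and -0.23. After irradiation 12 members were at least 1.5-fold higher in ago2c than in WT by the brightest probe, against 6.58% of all loci, and 1 (LHCB2.1) was lower, against 15.9%. The first of these counts was 36 with median scaling or the authors' values and 0 with quantile normalization or no scaling, and the second was 13 with the dimmest bright probe and 4 without scaling. In the 3 comparisons every probe was higher in 6, 5 and 9 of the 40 members, against 27.7%, 28.0% and 30.5% of all such loci.

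**Figure D5:**
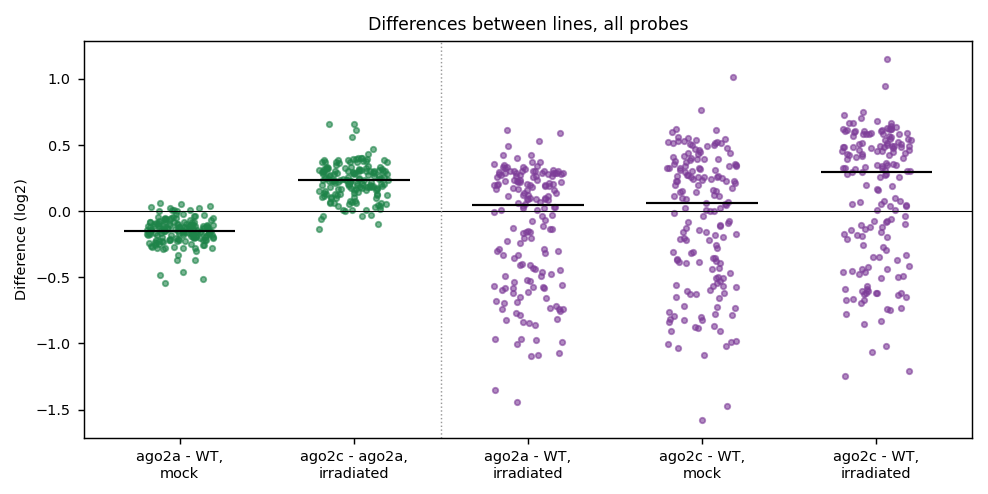
Difference between lines (log2, scaled to the 75th percentile) of the 166 member probes for 5 pairs of arrays; points are probes, jittered sideways, and the bar is their median. The green pairs lie within 1 array group and are narrow, mostly below 0 for ago2a minus WT mock and above 0 for ago2c minus ago2a irradiated, and the purple pairs cross the array groups and spread widely around 0.

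The third comparison, which the design of the series centres on, asked whether the response to irradiation differed between the ago2 lines and WT. No locus passed this test in either direction (0.00% higher and 0.00% lower), which had 1 residual degree of freedom. With so few degrees of freedom, the absence of calls does not show that the responses were equal. An unadjusted p under 0.05 was reached by 8.81% of loci, with no member among them. The smallest adjusted p of a member was 0.829, for LHCB2.3, whose estimate was 0.53 ± 0.26 (limma). The median over members was 0.29, against 0.06 over all loci tested. In 6 members every probe was below 0 in WT and above 0 in both ago2 lines, close to the 11.9% of all loci that did so. Of these 6, 5 were among the 6 members with 1 probe, and 15.3% of all loci with 1 probe showed the pattern. The median of 0.29 was 0.04 after quantile normalization, and it holds the ago2a pair that crosses the array groups.

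Other genes of the pathway were read from lists of related functions, and no gene of them passed any of the 3 tests. The 14 Calvin cycle genes, which follow RuBisCO in carbon fixation, had median differences of 0.46 in ago2a and 0.22 in ago2c and of -0.001 in WT, and all 38 of their probes were higher in ago2c, by 0.09 to 0.41. After quantile normalization 36 of the 38 were. The 14 other antenna and thylakoid genes had medians of 0.47 in ago2a, 0.20 in ago2c and 0.01 in WT. TPI, the plastid triose-phosphate isomerase, had the highest irradiation estimate of the Calvin cycle list at 0.33 and CP12-2, a small regulator of the cycle, lowest at 0.12. LHCB4.3 was highest of the antenna and thylakoid list at 0.44 and LHCB7 lowest at -0.04.

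Chlorophyll synthesis genes were lower after irradiation in WT in 12 of 13 cases by the brightest probe, against 52.9% of all loci, with a median of -0.09, and their medians were 0.43 in ago2a and 0.19 in ago2c. GUN4, which stimulates magnesium chelatase, gave 10676 and 7750 units in the WT pair, 10589 and 10694 in the ago2a pair, and 9269 and 9310 in the ago2c pair. HEMA1, which encodes the first committed enzyme of tetrapyrrole synthesis, gave 26770 and 20738 units in the WT pair, 25153 and 24600 in the ago2a pair, and 22191 and 21418 in the ago2c pair. In unscaled signal both were lower on the irradiated WT array and nearly level in the ago2 lines. The scaled WT differences were -0.46 and -0.36. Since the 75th percentile differed by -0.47 log2 in the ago2a pair, nearly level signals there become higher after scaling. The ago2a pair also crosses the array groups. GUN4 and HEMA1 were picked out by their values. By the estimate over the lines, CHLI1, a subunit of magnesium chelatase, was highest of the list at 0.28 and PORA, a protochlorophyllide reductase, lowest at -0.32.

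Of the 10 listed regulators of photosynthesis genes 9 were tested. GLK1, a transcription factor that activates antenna and chlorophyll synthesis genes, was highest, with 1526 and 1924 units in the WT pair, 1832 and 2051 in the ago2a pair, and 1331 and 2004 in the ago2c pair. It was brighter on the irradiated array of each line, and its estimate was 0.54 against 0.01 for the median of all loci. HY5, a light-signalling factor, was lowest at -0.39, with 2148 and 1967 units in the WT pair, 2314 and 1159 in the ago2a pair, and 1199 and 802.4 in the ago2c pair. In the list of 10 photoprotection genes VDE1, the violaxanthin de-epoxidase, was highest at 0.25 and ELIP2, an early light-induced protein, lowest at -0.43. Of the 11 listed chloroplast-encoded photosynthesis genes 0 had a matched probe, so their transcripts were not analysed here.

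Markers of other tissues also differed between the arrays. Of 20 root markers 19 were tested, and their median irradiation difference was -0.05 for WT, against -1.51 for ago2a and -1.65 for ago2c. The ago2a pair crosses the array groups, whereas the ago2c pair does not. The summed scaled signal of the root markers was 13.4 and 16.9 in the WT pair, 17.3 and 7.06 in the ago2a pair, and 10.0 and 4.28 in the ago2c pair. In the same order the members' summed scaled signal was 6157 and 6026, 5487 and 7144, and 7964 and 8665. Within the ago2 lines the root sum was lower and the member sum higher on the irradiated array. The member sums rest on the brightest probe and the scaling: after quantile normalization the member medians were -0.025 in ago2a and 0 in ago2c, while the median over root marker probes was -1.33 and -1.44. CASP5, a marker of root endodermis, had the lowest irradiation estimate of the root list at -2.22 and NRT2.1, a nitrate transporter, highest at 0.40. CASP5 and NRT2.1 were each well above background on 3 of the 6 arrays. The 8 markers of other shoot cells summed to at most 10.3 on any array, with SCL23 highest at 0.29 and STM lowest at -0.12. No root marker passed the irradiation test, and the part of root content in the values of the photosynthesis genes was not tested.

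The median over members of the row-centred values was -0.13 and -0.17 in the WT pair, -0.29 and 0.06 in the ago2a pair, and 0.20 and 0.32 in the ago2c pair. Among 10500 other loci with a range over 0.5 log2, 5 followed this profile most closely, with Pearson r of 0.999 over 6 arrays: AT5G60390, RRF (AT3G63190), AT1G73530, AT2G31170 and AT3G50790. AT5G60390 gave 182473 and 177739 units in the WT pair, 176383 and 163466 in the ago2a pair, and 148010 and 157589 in the ago2c pair. The profile is split between the array groups in the same way as the probes. The members lie on all 5 chromosomes, 17 of them on chromosome 1. PSAF (AT1G31330), a photosystem I subunit, is separated from AGO2 there by 4 protein-coding genes, and its single probe gave 416892 and 393763 units in the WT pair, 405119 and 384235 in the ago2a pair, and 371599 and 396771 in the ago2c pair, with no gap between the WT and ago2 lines. PSAF was named for this position.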

How the data were processed

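The authors deposited spot intensities from Feature Extraction 11.0.1.1, whose processed signal is already background-corrected, per the file headers. A linear ratio in the deposited series matrix, equal to the signal over its array median and a value per probe of unstated origin, was used as an alternative. Control spots were left out, 53 of the 43603 other probes were removed for outlier flags, and 34291 of the remaining 43550 were matched to a locus through RefSeq accessions listed for assembly TAIR10.1. Signals were log2-transformed and the 75th percentile of each array was subtracted; the deposited intensities themselves are linear. Quality flags that the deposited files hold as codes gave the filter, well above background on at least 2 of 6 arrays. The brightest probe stood for a locus in the fits with limma 3.58.1 (R 4.3.3, lmFit and eBayes, Benjamini-Hochberg at 0.05), which had 2, 3 and 1 residual degrees of freedom for irradiation, genotype and response difference. Single lines and single probes were compared without a test.

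Members and lists were chosen with earlier results of these data known. Named were the members highest and lowest by irradiation estimate in each class, the 4 whose probes differ most in any line, the RuBisCO genes with RCA, any member at least 1.5-fold changed the same way in all 3 lines, any past a test, and the highest and lowest of each other list; others are marked where named. Alternatives tried were quantile normalization, scaling to the array median, normexp (offset 50), the deposited ratios, other filters, the mean of probes, the dimmest bright probe, trended eBayes, other blocks, a 2-fold threshold and leaving out lines. The 6 scalings of the probe counts are the 75th percentile, normexp, quantile, median, the authors' values and no scaling. Probe and promoter sequences were not used here. The number of arrays limits the precision.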

Additional observations from a re-analysis of the deposited data

Results flagged for a closer look

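In 6 members (13.0% of the 46, against 11.9% of all loci tested) every probe was below 0 after irradiation in WT and above 0 in both ago2 lines. The response difference, ago2 lines minus WT on the log2 scale, was 0.27 for PSAE2, 0.34 for PSAF, 0.32 for PSAK, 0.36 for PSBY, 0.27 for PSBX and 0.36 for PETE1. Each of the 6 had an adjusted p of 0.909 in the limma test of the difference itself, which had 1 residual degree of freedom. PSBY has 3 probes and the other 5 have 1 probe each, as 6 of the 46 members do, and 15.3% of all loci with 1 probe showed the pattern. WT is a single pair of arrays, and the ago2a pair crosses the array groups. PSAK gave 333047 and 320822 units in the WT pair (mock, then irradiated), 321219 and 317267 in the ago2a pair, and 302099 and 313373 in the ago2c pair, so that in unscaled signal it was brighter after irradiation in ago2c alone.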

How the results depend on the processing

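No member passed any of the 3 tests under any alternative that was run. By the brightest probe, the ago2a member median of 0.36 became -0.025 after quantile normalization, -0.018 with the mean of probes, -0.42 with the dimmest bright probe and -0.11 without scaling between arrays, an alternative chosen after seeing the data. The 3 members at least 1.5-fold higher in ago2a became 15 with median scaling or the authors' values, 1 with the mean of probes, and 0 with quantile normalization, no scaling or a 2-fold threshold, and the 1 lower became 2 with quantile normalization, 0 with the mean of probes, 16 with the dimmest bright probe and 4 without scaling. For ago2c minus WT mock the median of 0.31 became -0.027, -0.098, -0.39 and -0.30 with quantile normalization, mean of probes, dimmest bright probe and no scaling. For ago2c minus WT irradiated the 0.48 became 0.017, 0.095, -0.23 and -0.17 in that order. For ago2a minus WT irradiated the 0.26 became -0.11, -0.51 and -0.093 with the last 3. The 12 members at least 1.5-fold higher in ago2c than in WT after irradiation became 36 with median scaling or the authors' values, 8 with normexp, 4 with the mean of probes, 5 with the dimmest bright probe, and 0 with quantile normalization or no scaling. The ago2c response median of 0.13 became 0 after quantile normalization. The median of all loci in ago2a was 0.06 and became 0.25 with median scaling and -0.41 without scaling, and for ago2c minus WT mock it was 0.04 and became 0.18 and -0.57. Leaving out a line gave member medians of 0.05 to 0.25 for irradiation and 0.03 to 0.40 for genotype. Over all loci, the 45 higher and 3 lower irradiation calls became 60 and 36 with normexp, 68 and 29 with trended eBayes, 71 and 17 with median scaling, 139 and 940 without WT, 15 and 7 without ago2c, and 0 without ago2a. The response difference had 0 calls, and 27 higher and 606 lower with normexp, 3 and 209 with trended eBayes and 101 and 535 with median scaling, with no member among them. Of 280 alternative values for the 20 named members 249 kept their sign and 31, none past the test, did not; the cause was not tested. The irradiation test pairs the arrays of a line through the line block, and without that block it called 84 loci higher and 19 lower, with no member among them. The labels give no replicate numbers to pair by. Leaving out a line was not run for the response difference, where no residual degree of freedom would remain. Normexp was run on median spot signals. The brightest probe of every member was well above background on all 6 arrays. The number of arrays, the choice of probe, the scaling and the array groups all limit these values.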
